A study of Mus musculus with 18 samples.

Results

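The epithelial bicarbonate, chloride and sodium transporters followed here were 8 genes of the 31201 listed in at least 1 of the deposited count tables of mouse stomach single cells: *Slc26a9*, *Slc26a6*, *Slc26a3*, *Slc4a4*, *Slc9a2*, *Slc9a3*, *Slc12a2* and *Cftr*. They were chosen by name as ion transporters outside the acid-secreting machinery of parietal cells, and all 8 were listed in both datasets. Gastric units were taken from wild-type male C57BL/6J mice of 10 weeks, with no transgene, allele or treatment in any group. Cells were sorted one per well after dead cells that took up ToPro3 were removed (dataset 2 was also gated on Hoechst33342 to drop debris, and for dataset 1 the labels name ToPro3 where the methods name propidium iodide), and Quartz-Seq2, a plate-based method that counts transcript ends by unique molecular identifiers (UMIs), was run on them. Dataset 1 covered corpus and antrum together, with pools tube1 and tube2, and dataset 2 covered the corpus, with pools K and T. Each pool held 3 mice and was spread over 3 plates in dataset 1 and 6 in dataset 2. The pools of a dataset were made by different operators, so pool and operator cannot be told apart, and every group rests on 2 pools. SEs come from fits that share 1 estimate of the spread over all groups of a dataset.

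The authors kept 491 cells in dataset 1 and 3993 in dataset 2, all with at least 2500 detected genes, in 15 and 20 clusters. Plates held 3054370 to 5346035 UMIs in dataset 1 and 10540256 to 12850942 in dataset 2. Type names followed the study where it gives them. In dataset 2 they were mature pit (cluster 13), pre-pit (cluster 4), isthmus (3, 5, 6, 9 and 11), neck (0, 2, 7 and 12), chief (10) and parietal (1 and 8), with clusters 14 to 19 holding endocrine, tuft, stromal, immune and endothelial cells. Cluster 12 was a neck cluster, but its chief markers *Cblif* and *Pgc* summed to 206117 CPM in the lower pool, beside 191682 CPM in the lower pool of the chief cluster. In dataset 1, the isthmus-like cluster was the one with the highest summed isthmus markers and the enterocyte-like cluster the one with the highest summed enterocyte markers. All 8 enterocyte markers were detected in the latter, at a summed 43568 and 50963 CPM, and 50 of its 70 cells carried the earlier label duodenum in the deposited annotation, so its values are not those of gastric epithelium. Clusters were built by the authors from the same counts, which include the 8 genes.

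A stomach surface exposed to acid is covered by mucus into which the epithelium secretes bicarbonate. The SLC26 transporters followed here (*Slc26a3*, *Slc26a6* and *Slc26a9*) and the chloride channel CFTR act at the luminal membrane. The sodium-bicarbonate cotransporter NBCe1 (*Slc4a4*) and the sodium-potassium-chloride cotransporter NKCC1 (*Slc12a2*) load the cell with bicarbonate and chloride from the blood side. NHE2 (*Slc9a2*) and NHE3 (*Slc9a3*) exchange sodium for protons, NHE3 being the main route of sodium absorption in the small intestine. *Slc26a3* is the exchanger whose loss causes congenital chloride diarrhoea.

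The genes lie on 7 chromosomes, all on the plus strand and all protein-coding in GENCODE M39 on GRCm39, the build the submitters aligned to. *Slc26a9* is at chr1:131671760-131700089 and *Slc9a2* at chr1:40719734-40808433. *Slc26a6* is at chr9:108730289-108742118, *Slc26a3* at chr12:31440870-31523916 and *Slc4a4* at chr5:89034345-89387514. *Slc9a3* is at chr13:74269360-74317561, where it overlaps *Exoc3* of the other strand, and *Cftr* is at chr6:18170686-18322767. *Slc26a3* and *Cftr* overlap predicted genes (*Gm9359* and *Gm15595*) on their own strand, and *Slc26a6*, *Slc26a3*, *Slc4a4*, *Slc9a2* and *Cftr* overlap predicted genes on the other strand. The authors counted against Gencode M27, and whether it lists the same overlaps was not checked. Whether strand was used in the counting was not given in the sources used here, so how UMIs in these overlaps were counted is uncertain.

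The promoter sequences of the 4 genes whose UMIs were most concentrated in parietal or enterocyte-like cells are printed. By the levels below, *Slc26a9* was a parietal gene, *Slc26a6* a gene of both and *Slc26a3* a gene of the enterocyte-like cells. *Slc9a3* was less concentrated in dataset 1, where the enterocyte-like cluster held 55.0% of its 407 UMIs and neck cells held 140. In dataset 2, parietal cells held 94.4% of its 89 UMIs. The sequences are the 250 bases before the RefSeq start, on the plus strand of GRCm38.p6, read from RefSeq's table, which matched 6 of the 8 genes. Capitals mark matches, on either strand, to TATAAA (the TATA box), AGATAA (bound by GATA factors), AAGGTCA (bound by monomeric nuclear receptors), GTTAAT (a hepatocyte nuclear factor 1 core) and GGGCGG (bound by Sp1), and TTTATG (bound by CDX factors) was searched as well.
Slc26a9, chr1:131743772-131744021: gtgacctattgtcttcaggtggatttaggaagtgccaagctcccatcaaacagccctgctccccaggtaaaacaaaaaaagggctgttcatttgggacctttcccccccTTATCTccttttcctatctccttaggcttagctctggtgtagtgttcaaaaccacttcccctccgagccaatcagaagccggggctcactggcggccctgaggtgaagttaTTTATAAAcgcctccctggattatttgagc
Slc26a6, chr9:108853793-108854042: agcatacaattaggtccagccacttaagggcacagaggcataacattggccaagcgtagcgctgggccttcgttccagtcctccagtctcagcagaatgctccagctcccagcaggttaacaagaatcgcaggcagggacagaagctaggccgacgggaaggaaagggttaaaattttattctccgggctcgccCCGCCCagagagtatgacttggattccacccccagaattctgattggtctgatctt
Slc26a3, chr12:31437969-31438218: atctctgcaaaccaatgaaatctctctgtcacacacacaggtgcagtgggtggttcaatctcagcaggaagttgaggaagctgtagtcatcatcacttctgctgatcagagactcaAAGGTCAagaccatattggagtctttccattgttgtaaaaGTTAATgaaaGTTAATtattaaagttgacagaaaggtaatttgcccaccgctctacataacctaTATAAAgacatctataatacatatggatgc
Slc9a3, chr13:74121163-74121412: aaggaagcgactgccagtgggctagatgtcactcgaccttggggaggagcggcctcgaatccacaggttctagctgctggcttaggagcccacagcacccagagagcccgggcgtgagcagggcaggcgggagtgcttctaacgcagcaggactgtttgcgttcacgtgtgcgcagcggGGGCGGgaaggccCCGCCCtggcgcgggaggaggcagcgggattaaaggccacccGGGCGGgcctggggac
The *Slc26a9* window held TATAAA with its first base 28 bases before the start, overlapping its reverse TTTATA at 30, and TTATCT at 141. The *Slc26a3* window held TATAAA at 30, GTTAAT at 84 and 94 and AAGGTCA at 134. The windows of *Slc26a6* and *Slc9a3* held no TATAAA, and had GGGCGG or its reverse CCGCCC at 56 in *Slc26a6* and at 16, 58 and 71 in *Slc9a3*. Over 32851 mouse promoter windows of the same length, 12.4% held TATAAA, 9.99% AGATAA, 4.08% AAGGTCA, 6.43% GTTAAT, 10.8% TTTATG and 32.7% GGGCGG, in either direction. These are matches of letters, not sites.

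Levels are given as CPM, the counts of all cells of a type summed within a pool and brought to a common library size, scaled by the trimmed mean of M-values (TMM), with both pools named in the order K and T, or tube1 and tube2. Differences were tested with edgeR's quasi-likelihood test on those sums and called at a Benjamini-Hochberg adjusted p under 0.05 over all genes tested. Scaling mattered in these sums, and the reason was not tested. Without TMM, with library totals alone, the median log2 difference of all genes shifted from -0.04 to -0.87 in chief against neck cells and from -0.04 to -0.52 in parietal against isthmus cells, and it was between -0.23 and 0.16 in the other comparisons of dataset 2 and between -0.32 and 0 in those of dataset 1. Differences below are relative to the bulk of genes, and called directions that turn with library totals are named where they occur. Of values that were not called, those of *Slc26a6* and *Slc9a2* turned most often, and none of the turned values was called with library totals.

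*Slc26a9*, which encodes a chloride channel and transporter of gastric epithelium, was a gene of parietal cells in both datasets. In the corpus it was at 1151 CPM in pool K and 950 CPM in pool T in parietal cells. In every other type of dataset 2 each pool was at 16.4 CPM or below. Chief cells were at 8.38 and 5.72 CPM, isthmus cells at 7.79 and 3.5, pre-pit cells at 6.03 and 4.68, mature pit cells at 3.37 and 9.86, and neck cells at 4.50 and 3.16 CPM. Parietal cells held 98.1% of all 26752 *Slc26a9* UMIs of the corpus. The parietal and isthmus pools did not overlap, and the log2 difference was 7.57 (SE 0.30, adjusted p = 1.8e-11).

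**Figure D1:**
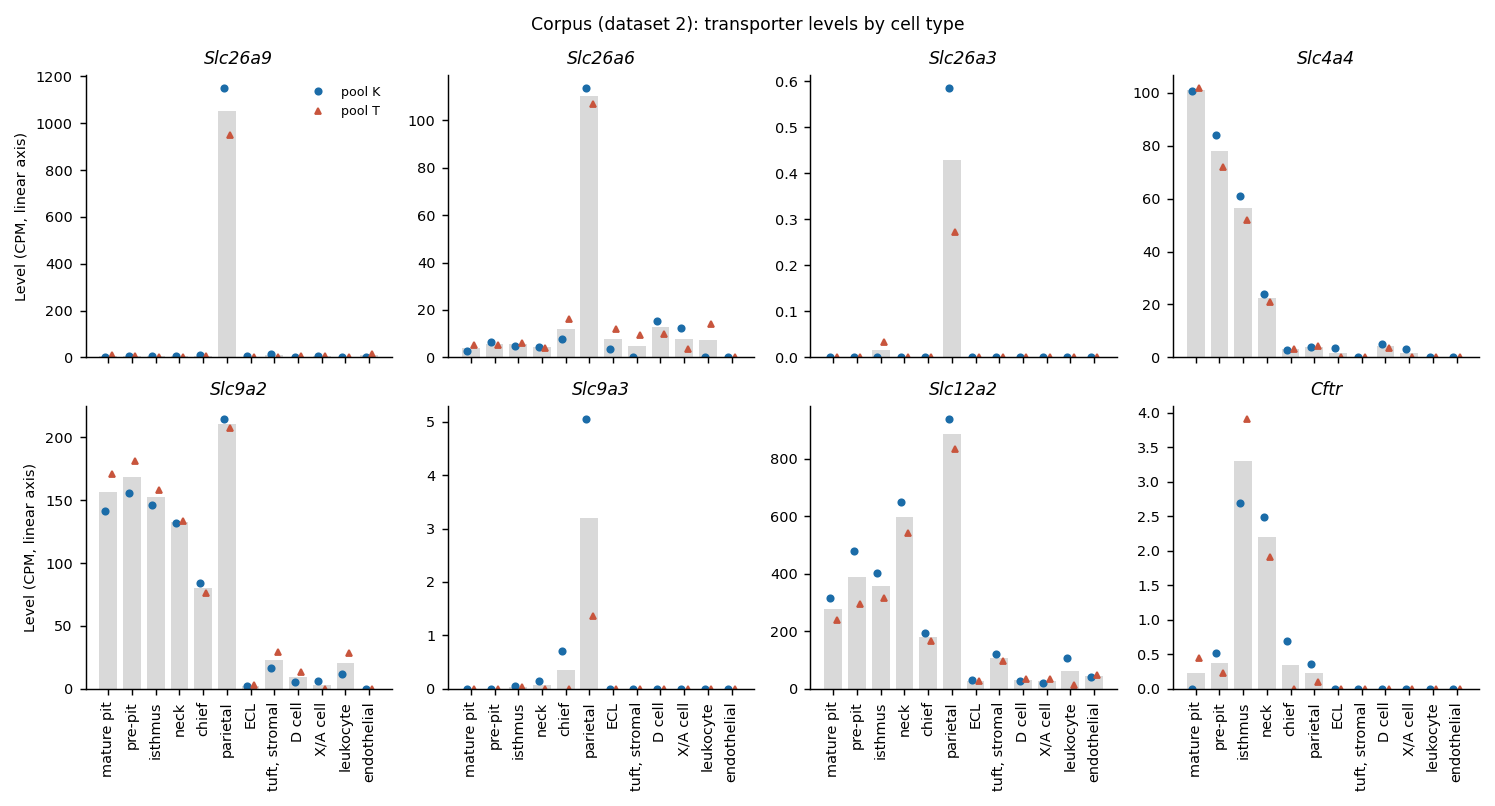
Levels of the 8 transporters in the 12 cell types of the corpus (dataset 2), on linear CPM axes that differ between panels. Circles are pool K, triangles pool T and grey bars the mean of the 2 pools; *Slc26a9* and *Slc26a6* stand out in parietal cells, *Slc4a4* declines from mature pit to neck cells, and *Slc9a2* and *Slc12a2* are spread over the epithelium.

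The low *Slc26a9* counts outside parietal cells were set beside *Atp4b*, the beta subunit of the parietal proton pump. For every 100 *Atp4b* UMIs, parietal cells held 4.55 (K) and 4.01 (T) of *Slc26a9*. Isthmus, neck, pit and chief cells together held 4.61 and 3.69, and clusters 14 to 19 held 4.35 and 2.69. Single types departed from these sums, with 15.7 in mature pit cells of T (22 *Slc26a9* UMIs beside 140 *Atp4b* UMIs) against 3.66 in K, and 0.735 in cluster 14 of T. In dataset 1 the ratio was 4.02 and 3.67 in parietal cells, 76.9 and 9.09 in isthmus-like cells, 25 and 43.8 in neck cells and 400 and 14.3 in antrum mature pit cells, where tube1 had 32 *Slc26a9* UMIs beside 8 of *Atp4b*. Over both pools, 5 of 49 antrum mature pit cells had an *Slc26a9* UMI. The proportion was thus not kept in all types or in dataset 1, and the part of parietal RNA in these counts was not tested. The highest level outside parietal cells by cluster was in isthmus cluster 9 of pool K, at 25.9 CPM against 2.78 CPM in pool T, and there the summed parietal markers were at 1125 CPM in 1 pool and 187 in the other. In single cells, 697 of 702 parietal cells (99.3%, exact binomial 95% interval 98.3 to 99.8%, counting error only) had an *Slc26a9* UMI at a median depth of 47647 UMIs. Of 1247 neck cells, 7.54% had one (6.13 to 9.15%) at a median of 22530 UMIs, and of 1285 isthmus cells 12.5% (10.8 to 14.5%) at a median of 37426. After each cell was thinned to 10000 UMIs the shares were 98.7%, 3.47% and 3.44%.

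*Slc26a6*, a chloride-bicarbonate and oxalate exchanger, was also highest in parietal cells of the corpus, at 114 and 107 CPM. Chief cells were at 7.68 and 16.2 CPM, isthmus cells at 4.79 and 6.23, pre-pit cells at 6.29 and 5.13, mature pit cells at 2.81 and 5.38, and neck cells at 4.43 and 4.12 CPM. Parietal cells held 83.2% of the 3285 UMIs. The log2 difference from isthmus cells was 4.30 (SE 0.17, adjusted p = 4.2e-22), with no overlap of pools. Its ratio to *Atp4b* was lowest in parietal cells among these sums, at 0.449 and 0.450 per 100 *Atp4b* UMIs in parietal cells, 3.46 and 5.66 in isthmus, neck, pit and chief cells together, and 3.91 and 6.15 in clusters 14 to 19. A UMI was seen in 91.6% of parietal cells (52.8% after thinning), 19.0% of isthmus cells (5.16%) and 8.74% of neck cells (3.31%).

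Chief cells had more *Slc26a6* than neck cells, at 7.68 and 16.2 against 4.43 and 4.12 CPM. The log2 difference was 1.56 (SE 0.33, adjusted p = 0.00030), and with library totals alone it fell to 0.72 (adjusted p = 0.046). It rested on 11 and 34 UMIs in chief cells, and pool K alone gave 0.81 against 1.98 in pool T alone. Parietal markers were higher in the chief cluster as well, at 541 to 644 CPM summed over 3 markers against 302 to 485 CPM in the neck clusters, and their part in the difference was not tested.

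The 2 parietal clusters of the corpus were compared with each other. *Slc26a9* was at 754 and 747 CPM in cluster 8 and 1344 and 1064 CPM in cluster 1, so the pools did not overlap. The log2 difference was -0.68 (SE 0.25, adjusted p = 0.066), and with the pool as a replicate block, which compares the clusters within each set of mice, it was -0.66 (adjusted p = 0.024). *Slc26a6* was at 98.6 and 99.4 CPM in cluster 8 and 119 and 106 CPM in cluster 1 (log2 difference -0.19, SE 0.16, adjusted p = 0.50, turning to 0.03 on library totals alone). *Slc12a2* was at 698 and 790 CPM in cluster 8 against 1048 and 817 CPM (-0.33, SE 0.22, adjusted p = 0.37), and *Slc9a2* at 216 and 225 against 207 and 179 CPM (0.19, SE 0.10, adjusted p = 0.20; 0.41 with adjusted p = 0.00094 on library totals alone). Of the 6 transporters tested here, 0 were called, in a comparison that called 19.7% of 15295 genes; among them, *Slc26a9* alone passed once the replicate block was added.

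*Slc26a3* was nearly absent from the corpus, with 12 UMIs in 11 of 3993 cells, 11 of these UMIs in parietal cells and 1 in isthmus cells. No chief, neck or pre-pit cell had a UMI, and 0 of 1247 neck cells allows a share of up to 0.241% with a UMI, taking 3 cells as the limit of a count of 0 (exact 95% upper bound 0.295%, counting error only). It did not pass the filter on low counts in dataset 2, nor did *Slc9a3*. *Cftr* passed that filter in the fit of dataset 2 clusters but not in that of types, so it was not tested between corpus types.

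In dataset 1, both exchangers were high in enterocyte-like cells. *Slc26a6* was at 868 and 969 CPM there, against 90.2 and 63.5 CPM in parietal cells and at most 12.5 CPM per pool in all other clusters. *Slc26a3* was at 646 and 503 CPM in the enterocyte-like cluster, which held 98.5% of its 613 UMIs, and at most 10.1 CPM per pool elsewhere. Every one of the 70 enterocyte-like cells had a *Slc26a6* UMI, and 56 of 70 (80%, 68.7 to 88.6%) had a *Slc26a3* UMI, at a median depth of 17439 UMIs. *Slc26a9* showed the opposite distribution, with 0 and 1 UMI in the enterocyte-like pools and 803 and 743 CPM in parietal cells. The enterocyte marker list also ran high in parietal cells of dataset 1, at a summed 6756 to 8005 CPM, almost all of it *Apoa1* (7814 and 6532 CPM), with *Cdx1* and *Cdx2* at 0 UMIs. *Slc26a3*, which accompanied *Slc26a6* in the enterocyte-like cells at 604 against 1046 UMIs, was at 1 UMI beside 205 *Slc26a6* UMIs in parietal cells. The part of enterocyte RNA in the parietal counts was not tested.

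**Figure D2:**
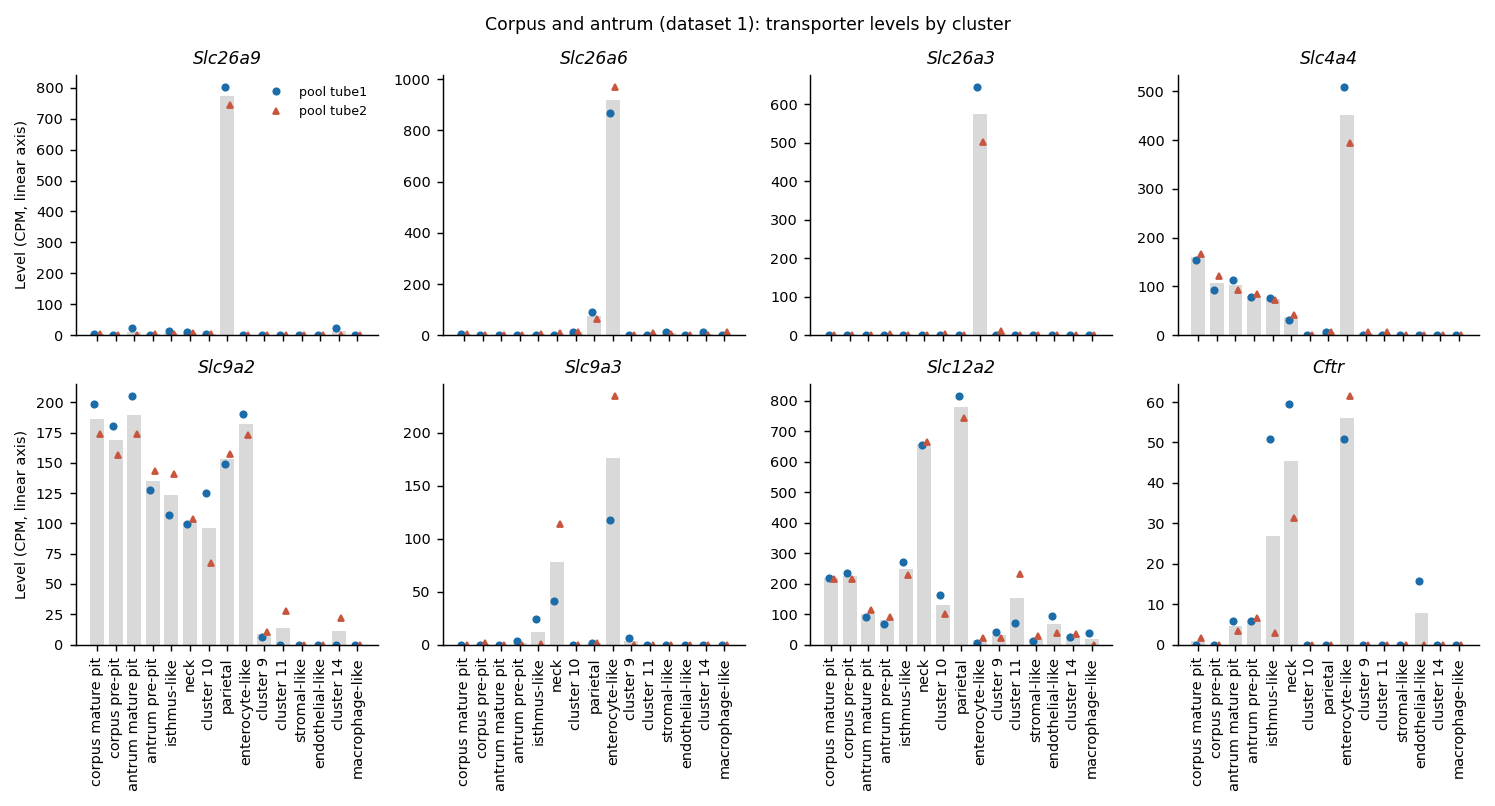
Levels of the 8 transporters in the 15 clusters of corpus and antrum (dataset 1), on linear CPM axes that differ between panels; circles are pool tube1, triangles pool tube2 and grey bars their mean. The enterocyte-like cluster has the highest mean for *Slc26a6*, *Slc26a3*, *Slc4a4*, *Slc9a3* and *Cftr*, overlapping with the neck pools for *Cftr*, and lies below the pit, isthmus-like, neck and parietal clusters for *Slc12a2*, and the neck cluster also holds *Slc9a3* and *Cftr*.

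Against antrum mature pit cells, 5 of the 8 transporters were called in enterocyte-like cells, 4 higher and 1 lower, in a comparison that called 35.9% of 11965 genes. *Slc26a6* had 1046 UMIs against 3 in antrum mature pit cells, a ratio of CPM of 719 (95% counting interval 245 to 3490, adjusted p = 9.1e-24). *Slc26a3* had 604 UMIs against 1, a ratio of 1245 (223 to 49249, adjusted p = 2.2e-18), although DESeq2 on the same sums did not call it (adjusted p = 0.32). *Slc9a3*, at 118 and 234 CPM, faced 0 UMIs in antrum mature pit cells and was at least 154-fold higher, taking 3 UMIs over the group as the floor (adjusted p = 0.0035). *Slc4a4* was at 509 and 395 CPM against 114 and 91.9 CPM (log2 difference 2.10, SE 0.20, adjusted p = 3.5e-12). *Slc12a2* was the one that was lower, at 6.36 and 20.1 CPM against 91.5 and 112 CPM (-2.65, SE 0.37, adjusted p = 4.9e-08), with 2 UMIs in pool tube1, which alone gave -3.76. *Cftr*, at 50.9 and 61.4 CPM against 5.72 and 3.36 CPM, was not called (3.54, SE 1.25, adjusted p = 0.063), and it was with the pool as a replicate block (3.91, adjusted p = 0.022) and without the filter on low counts (3.60, adjusted p = 0.0068). *Slc9a2* was at 191 and 173 CPM against 205 and 174 CPM (-0.08, SE 0.21, adjusted p = 0.87).

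*Slc4a4*, the sodium-bicarbonate cotransporter that feeds bicarbonate secretion, followed the pit lineage. In the corpus it was at 101 and 102 CPM in mature pit cells, 84.2 and 71.8 in pre-pit cells, 60.9 and 51.9 in isthmus cells and 23.9 and 20.9 CPM in neck cells. The pools of neighbouring types in this order did not overlap. Chief cells were at 2.79 and 3.34 CPM and parietal cells at 3.73 and 4.34 CPM. The share of cells with a UMI was 81.1% in pre-pit, 75.3% in isthmus, 33.4% in neck, 9.54% in parietal and 4.44% in chief cells, and 44%, 38.5%, 17.8%, 2.85% and 1.11% after thinning.

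Pre-pit cells exceeded isthmus cells by a log2 difference of 0.47 (SE 0.12, adjusted p = 0.0052), the only transporter of the 5 tested in dataset 2 that was called there, in a comparison that called 23% of 13383 genes. With library totals alone the difference was 0.26 and was not called (adjusted p = 0.13). Between mature pit and pre-pit cells 0 of 5 transporters were called, against 8.35% of all genes. *Slc4a4* was higher by 0.38 in mature pit cells (SE 0.14, adjusted p = 0.096), and with the pool as a replicate block by 0.39 (adjusted p = 0.037). *Slc12a2* was at 315 and 241 CPM in mature pit and 479 and 296 CPM in pre-pit cells, a log2 difference of -0.48 (SE 0.20, adjusted p = 0.15), and with the block of -0.46 (adjusted p = 0.0032). *Slc12a2* also passed without the filter on low counts (-0.53, adjusted p = 0.0040).

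The fall of *Slc4a4* away from the pit side was larger. Neck cells were lower than isthmus cells by a log2 difference of -1.33 (SE 0.12, adjusted p = 5.1e-11), chief cells lower than neck cells by -2.84 (SE 0.34, adjusted p = 1.6e-08) and parietal cells lower than isthmus cells by -3.81 (SE 0.16, adjusted p = 3.9e-21). These comparisons called 44.2%, 34.4% and 65.5% of 13383 genes, and of the 5 transporters tested they called 2, 4 and 5. Among neck cells, *Slc4a4* was at 31 and 31.4 CPM in cluster 2, 20.4 and 20.1 in cluster 0, 22.2 and 19.9 in cluster 7 and 8.04 and 4.45 CPM in cluster 12, the neck cluster with the most *Cblif* and *Pgc*. Cluster 12 was below the mean of the other 3 by a log2 difference of -1.87 (SE 0.29, adjusted p = 7.2e-06), on 14 and 6 UMIs. It was the 1 transporter called of 6 tested, in a comparison that called 7.15% of 15295 genes.

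The same order was seen in dataset 1, where *Slc4a4* was at 154 and 166 CPM in corpus mature pit, 92.2 and 122 in corpus pre-pit, 76.6 and 72.2 in isthmus-like, 32.1 and 41.2 in neck and 7.52 and 5.78 CPM in parietal cells. Neck was below isthmus-like by -0.99 (SE 0.25, adjusted p = 0.0033) and parietal below isthmus-like by -3.51 (SE 0.31, adjusted p = 2.9e-13). Those comparisons called 2 and 5 of the 8 transporters, against 19% and 45% of 11965 genes. Corpus mature pit against corpus pre-pit gave 0.59 (SE 0.21, adjusted p = 0.087) and corpus pre-pit against isthmus-like 0.50 (SE 0.21, adjusted p = 0.13), with 0 of 8 transporters called in either, against 6.82% and 10.7% of all genes. In the first, *Slc4a4* passed when the fit held epithelial clusters only (0.56, adjusted p = 0.048).

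Corpus and antrum pit cells differed in 2 of the 8 transporters, in a comparison that called 5.42% of genes. *Slc12a2* was at 219 and 216 CPM in corpus mature pit and 235 and 214 CPM in corpus pre-pit cells, against 91.5 and 112 CPM in antrum mature pit and 68.9 and 91.0 CPM in antrum pre-pit cells. All 4 corpus values lay above all 4 antrum values, and the log2 difference was 1.31 (SE 0.18, adjusted p = 4.5e-07). *Slc4a4* was at 114 and 91.9 CPM in antrum mature pit and 77.7 and 84.5 CPM in antrum pre-pit cells, and the corpus was higher by 0.51 (SE 0.16, adjusted p = 0.048). That call was lost with library totals alone (0.49, adjusted p = 0.060), without the filter on low counts (0.49, adjusted p = 0.088) and in DESeq2 (0.51, adjusted p = 0.064). *Slc9a2* was at 199 and 174 CPM in corpus mature pit cells and 205 and 174 CPM in antrum mature pit cells, and over both pit clusters the difference was 0.15 (SE 0.15, adjusted p = 0.80).

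Maturation within the antrum called 0 of 8 transporters, against 7.96% of genes, with *Slc4a4* at 0.36 (SE 0.24, adjusted p = 0.46), *Slc9a2* at 0.50 (SE 0.22, adjusted p = 0.18) and *Slc12a2* at 0.35 (SE 0.27, adjusted p = 0.55). In the test of whether maturation differed between corpus and antrum, edgeR called 0 transporters and 3 genes in all (0.0251%), with 405 genes at an unadjusted p under 0.05 and 7 genes called by DESeq2. There, *Slc4a4* was at 0.24 (SE 0.32), *Slc9a2* at -0.36 (SE 0.30) and *Slc12a2* at -0.41 (SE 0.35).

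*Slc9a2*, which encodes the sodium-proton exchanger NHE2, was the most evenly spread of the epithelial genes. In the corpus it was at 214 and 208 CPM in parietal, 156 and 181 in pre-pit, 142 and 171 in mature pit, 147 and 158 in isthmus, 132 and 133 in neck and 84.5 and 76.3 CPM in chief cells. The pre-pit, mature pit and isthmus pools overlapped, and no pool of clusters 14 to 19 was above 28.9 CPM. Chief cells were lower than neck cells by a log2 difference of -0.73 (SE 0.13, adjusted p = 3.5e-05). Parietal cells were higher than isthmus cells by 0.47 (SE 0.11, adjusted p = 0.00026), but with library totals alone the difference was -0.01 (adjusted p = 0.92), so its direction turned with the scaling. In dataset 1 the parietal cluster, at 149 and 157 CPM, did not differ by the test from the isthmus-like cluster at 107 and 141 CPM (0.30, SE 0.20, adjusted p = 0.24, turning to -0.09 on library totals alone).

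*Slc12a2*, the NKCC1 cotransporter, lies at chr18:58011164-58080812 and was highest in parietal cells and then in neck cells of both datasets. In the corpus it was at 938 and 834 CPM in parietal, 650 and 543 in neck, 479 and 296 in pre-pit, 402 and 316 in isthmus, 315 and 241 in mature pit and 194 and 167 CPM in chief cells. Pre-pit and isthmus pools overlapped. Pool K was above pool T in each of these 6 types. The log2 difference from isthmus cells was 1.30 in parietal cells (SE 0.19, adjusted p = 1.6e-06) and 0.73 in neck cells (SE 0.18, adjusted p = 0.0024), and chief cells were below neck cells by -1.73 (SE 0.20, adjusted p = 3.0e-07). In dataset 1 it was at 815 and 744 CPM in parietal, 654 and 666 in neck and 270 and 228 CPM in isthmus-like cells. Both differences from isthmus-like cells were called, at 1.64 in parietal (SE 0.21, adjusted p = 5.6e-09) and 1.41 in neck cells (SE 0.21, adjusted p = 1.4e-06).

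**Figure D3:**
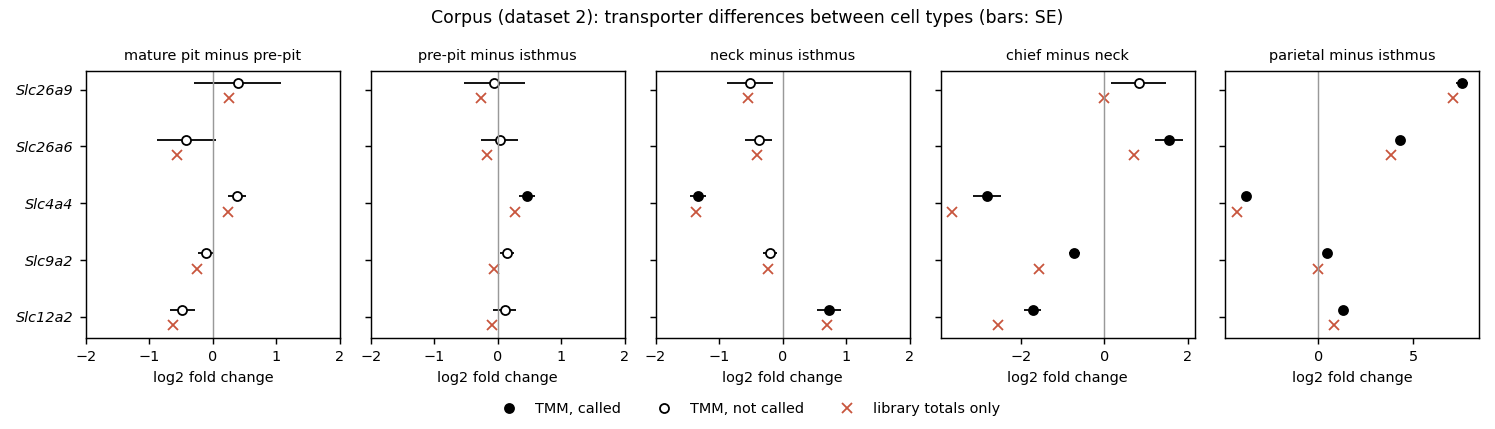
Log2 fold changes of the 5 transporters tested between corpus cell types (dataset 2), with circles for TMM scaling (filled where called), horizontal bars of 1 SE and crosses for library totals alone; the log2 axes differ between panels. *Slc4a4* lies left of 0 in neck, chief and parietal comparisons, *Slc12a2* lies right of 0 in neck and parietal cells, and for *Slc9a2* in parietal cells the cross sits at -0.01.

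In parietal cells of dataset 1, *Slc26a9* exceeded isthmus-like cells by a log2 difference of 6.53 (SE 0.50, adjusted p = 2.5e-07), from 803 and 743 CPM against 13.9 and 3.31 CPM. The 20 and 6 UMIs of the isthmus-like pools made this size uncertain, with 5.84 in tube1 alone and 7.78 in tube2 alone. *Slc26a6* exceeded them by 4.27 (SE 0.38, adjusted p = 2.8e-13), from 90.2 and 63.5 CPM against 1.39 and 5.51 CPM, with 5.93 in tube1 alone and 3.51 in tube2 alone. The direction was the same in both pools for both genes.

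*Slc9a3*, which encodes NHE3, was rare in the corpus and had 89 UMIs in 25 of 3993 cells. Parietal cells held 84 of them, at 5.04 CPM in pool K and 1.36 CPM in pool T, and 2 parietal cells of pool K held 31 and 25 UMIs, one in cluster 1 and one in cluster 8. Neck cells held 2 UMIs in 2 of 1247 cells. In dataset 1 the picture was different, with 407 UMIs in 74 of 491 cells. The neck cluster of dataset 1 was at 41.3 and 114 CPM, second to the enterocyte-like cluster, and the isthmus-like cluster at 23.7 and 0.551 CPM. The neck pools were above the isthmus-like pools, but the difference was not called (2.83, SE 0.95, adjusted p = 0.085), with 0.80 in tube1 alone and 7.52 in tube2 alone, where the isthmus-like pool had 1 UMI.

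These neck counts came from few cells. Only 7 of 45 neck cells of dataset 1 had a *Slc9a3* UMI (15.6%, 6.49 to 29.5%), each with 6 to 42 UMIs, 2 cells in tube1 and 5 in tube2. All 7 had UMIs of *Aqp5*, 3 to 109 per cell, and 6 of the 7 had UMIs of *Lgr5*. *Aqp5* and *Lgr5* are on the marker list of antral gland cells, and setting them beside *Slc9a3* was chosen after the values were seen. Neither gene was confined to the antrum. Of 1203 corpus neck cells of dataset 2 with neither *Slc9a3* nor *Cftr*, 545 (45.3%) had *Aqp5* and 36 had *Lgr5*. Of 1207 such corpus isthmus cells, 364 (30.2%) had *Aqp5*. Of the 31 neck cells of dataset 1 with neither *Slc9a3* nor *Cftr*, 13 had *Aqp5*, with at most 21 UMIs, and 2 had *Lgr5*. In the isthmus-like cluster, 4 of 53 cells had *Slc9a3* and all 4 had *Aqp5*, against 5 of 43 cells with neither gene, at most 1 *Aqp5* UMI each. None of the *Slc9a3* cells of the neck or isthmus-like cluster had a *Slc26a3* UMI, whereas 47 of 56 *Slc9a3* cells of the enterocyte-like cluster did. Of the enterocyte markers, *Cdx1* had 8 and 19 UMIs in the neck cluster and *Cdx2* had 1 and 0. *Cdx1* was at 12.9 and 21.1 CPM there, without TMM scaling, and at 39.7 and 59.1 CPM in the enterocyte-like cluster. Of the 45 neck cells, 3 carried the earlier label Lgr5+/Axin2+ stem cells. The identity of the *Slc9a3* cells was not tested.

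**Figure D4:**
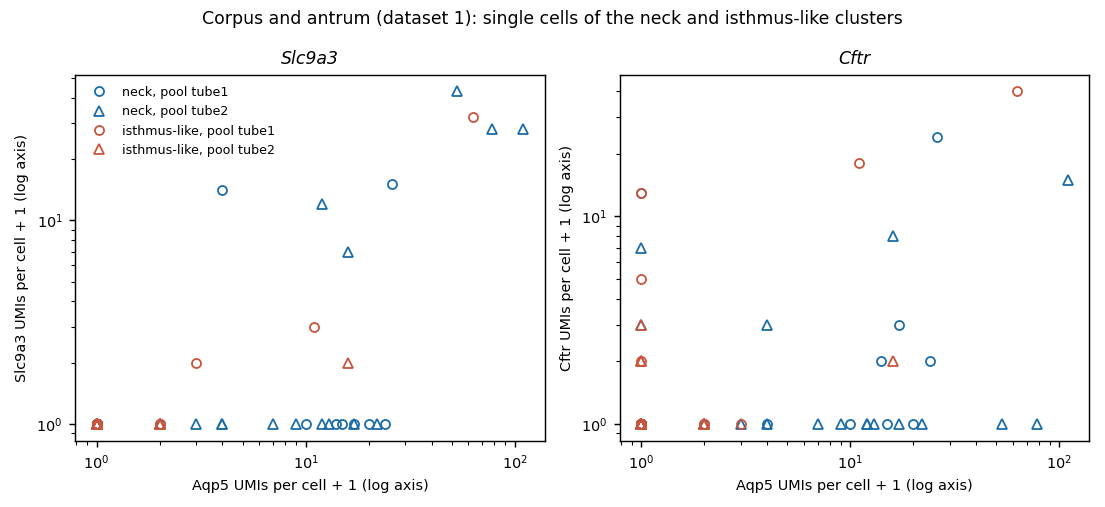
UMIs of *Slc9a3* (left) and *Cftr* (right) against UMIs of *Aqp5* in single cells of the neck (blue) and isthmus-like (red) clusters of dataset 1, circles for pool tube1 and triangles for tube2, both axes logarithmic with 1 added. The *Slc9a3* cells all lie to the right of the *Aqp5* zero line, and the *Cftr* cells lie on both sides of it.

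*Cftr*, the cyclic-AMP-gated chloride channel, was low in the corpus, with 252 UMIs in 128 of 3993 cells. It was at 2.7 and 3.91 CPM in isthmus and 2.49 and 1.91 CPM in neck cells, and at most 0.698 CPM per pool in each other type. Within the isthmus it was concentrated in cluster 11, at 10.7 and 18.5 CPM against at most 2.65 CPM per pool in clusters 3, 5, 6 and 9. Cluster 11 was 85.5% G1 cells by the deposited phase annotation. By phase, isthmus cells were at 11.9 and 20.2 CPM in G1, 2.02 and 1.82 in S and 1.48 and 1.51 CPM in G2M, without TMM scaling. The G1 value rested on few cells, since 12 of the 179 cells of cluster 11 held its 100 *Cftr* UMIs and 3 of them held 60.0%.

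Neck clusters 12 and 0 had *Cftr* in both pools, at 4.60 and 5.19 CPM and 2.04 and 2.33 CPM, and cluster 7 had 17 UMIs in K and none in T. Cluster 12 exceeded the mean of the other neck clusters by 1.70 (SE 0.64, adjusted p = 0.11), on 8 and 7 UMIs. Of 42 neck cells of the corpus with a *Cftr* UMI, 35 had *Aqp5* (83.3%), and of 1203 with neither *Cftr* nor *Slc9a3*, 545 had it (45.3%), at median depths of 24993 and 22466 UMIs.

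In dataset 1, *Cftr* was at 59.6 and 31.2 CPM in neck, 50.9 and 2.76 CPM in isthmus-like and 50.9 and 61.4 CPM in enterocyte-like cells. Antrum pre-pit cells were at 5.86 and 6.50 CPM and antrum mature pit cells at 5.72 and 3.36 CPM. Corpus pre-pit cells had 0 UMIs, at least 16.5-fold lower than isthmus-like cells by the same floor, which edgeR did not call (adjusted p = 0.12) and DESeq2 did (adjusted p = 0.015). Corpus mature pit cells had 1 UMI, and the corpus and antrum pit clusters did not differ by the test (-3.62, SE 2.19, adjusted p = 0.55). Parietal cells had 0 UMIs in 57 cells, which allows a share of up to 5.26% with a UMI by the same limit (exact 95% upper bound 6.27%). They were called lower than isthmus-like cells (adjusted p = 0.031), at least 22.7-fold taking 3 UMIs over the group as the floor, but the isthmus-like pools had 73 and 5 UMIs and 1 cell held 39 of the 78. Neck and isthmus-like cells did not differ by the test (0.77, SE 0.94, adjusted p = 0.68).

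Levels in isthmus cells were also read by cell cycle phase, with no test. *Slc4a4* was at 49.5 and 39.4 CPM in G1, 59.2 and 51.5 in S and 64.6 and 55.3 CPM in G2M cells, and the pools of neighbouring phases overlapped between S and G2M. *Slc12a2* was at 486 and 358, 413 and 303 and 381 and 317 CPM, and *Slc9a2* at 146 and 153, 130 and 144 and 160 and 168 CPM, in the same order and without TMM scaling.

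Across the 20 corpus clusters, *Slc9a2* and *Slc12a2* had a Pearson correlation of 0.91 on the log2(CPM + 1) scale, and across the 15 clusters of dataset 1 of 0.61. *Slc4a4* with *Slc9a2* had 0.72 and 0.82, *Slc26a9* with *Slc26a6* 0.83 and 0.31, and *Slc9a3* with *Cftr* -0.16 and 0.85. Clusters share plates and depth and may share free RNA, which was not tested, so these are descriptions. Among 13546 genes, the 3 most like each transporter over the corpus clusters were *Smim38*, *Sdr9c7* and *Pthlh* for *Slc26a9* (0.98, 0.97 and 0.97, and 0.82, 0.86 and 0.88 in dataset 1). They were *Hibadh*, *Mpc2* and *Auh* for *Slc26a6* (0.92, 0.91 and 0.91, and 0.46, 0.62 and 0.48 in dataset 1). *Hibadh* and *Auh* encode mitochondrial enzymes of amino acid breakdown and *Mpc2* a subunit of the mitochondrial pyruvate carrier. With a pseudocount of 10, 0 of these 3 stayed among the top 3. For *Slc4a4* they were *Rbm20*, *Teddm3* and *Prima1* (0.97, 0.96 and 0.96, and 0.79, 0.88 and 0.56), for *Slc9a2* *Clint1*, *Rnpep* and *Mboat1* (0.97, 0.97 and 0.96, and 0.86, 0.74 and 0.91) and for *Slc12a2* *Capn6*, *Smim31* and *Bri3* (0.95 each, and 0.83, 0.45 and 0.70). For *Cftr* they were *Cldn2*, a claudin, *Cym* and *Bdh2* (0.85, 0.84 and 0.83, and 0.88, 0.47 and 0.51), and for *Slc9a3* *Cfap46*, *E330013P04Rik* and *Grk1* (0.99 each, and -0.02, -0.01 and 0.61). With a pseudocount of 10, 0 of the 3 named for *Slc9a3* stayed among its top 3.

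A list of 68 other transporters, channels, pumps and regulators (the other SLC26, SLC4, SLC9 and SLC12 genes, chloride and sodium channels, pumps and regulators of these) was set beside the 8. In parietal against isthmus cells 46 were tested, 25 were higher and 11 lower (78.3% called, against 65.5% of all genes), with a median log2 difference of 0.51 against -0.04 over all genes. *Slc26a7*, a chloride-bicarbonate exchanger, rose by 7.05 (178 and 163 CPM against 2.01 and 0.640), and *Slc4a2*, the basolateral exchanger AE2 of parietal cells, rose by 4.69 (2290 and 2229 CPM against 86.2 and 88.7). *Sctr*, the secretin receptor, fell by 3.91, and *Slc4a8* had 0 UMIs in parietal cells against 12 and 16 in isthmus cells, at least 4.35-fold lower. In dataset 1, 17 of 48 were higher and 8 lower (52.1% called against 45%, median 0.41 against 0), with *Slc26a7* at 6.84 and *Slc4a2* at 4.78 the largest rises and *Sctr* and *Slc9b2*, a sodium-proton exchanger, the largest falls at -4.50 and -2.71.

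Between the 2 parietal clusters, 19 of 49 list genes were lower in cluster 8 and 4 higher (46.9% called, against 19.7% of all genes), with a median of -0.30 against 0.00 over all genes. The largest falls were *Slc12a8* (-1.96, from 38.7 and 38.7 CPM to 10.6 and 9.19) and *Slc26a7* (-1.73, from 237 and 229 to 65.6 and 74.8 CPM), and the largest rises *Slc9b2* (1.47) and the calcium-activated chloride channel *Ano1* (1.11).

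In neck against isthmus cells 19 of 46 were higher and 7 lower (56.5% called against 44.2% of all genes, median 0.35 against 0.01), and in dataset 1 11 of 48 and 2 of 48 (27.1% against 19%, median 0.36 against 0). *Slc12a8* rose in both, by 1.79 and 2.16, with *Slc12a4* (2.31) in the corpus and *Slc9b2* (1.34) in dataset 1. *Sctr* fell in both, by 2.93 and 3.14, the latter on 1 and 4 UMIs in neck cells. Beside it fell *Slc4a8* (-2.07, on 2 and 1 UMIs in neck cells) in the corpus and *Ano1* (-2.69) in dataset 1. In chief against neck cells 7 of 46 were higher and 16 lower (50% called against 34.4%, median -0.21 against -0.04). *Slc9a9* (5.51, with 0 and 7 UMIs in neck cells) and *Sctr* (4.18, 56.6 and 70.6 CPM against 3.46 and 3.60) rose most, and *Slc9b2* (-2.42) and the kinase *Wnk2* (-2.11, on 2 and 2 UMIs in chief cells) fell most. In cluster 12 against the other neck clusters 2 of 49 rose, *Clcn3* (0.43) and *Stk39* (0.41), and 4 fell (12.2% called against 7.15%, median -0.01 against -0.03), most of all *Slc12a7* (-0.77) and *Slc9b2* (-0.76).

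Along the pit lineage of the corpus, 7 of 46 list genes were higher and 5 lower in pre-pit than in isthmus cells (26.1% called against 23% of all genes, median -0.01 against -0.02), and 4 higher and 5 lower in mature pit than in pre-pit cells (19.6% against 8.35%, median 0.00 against 0). *Sctr* rose in both steps, by 1.67 and 0.99, to 169 and 173 CPM in mature pit cells, beside *Clcn2* (0.81) in the first step and the sulfate transporter *Slc26a2* (1.65) in the second. *Slc9b2* fell in both steps, by 0.61 and 1.19, beside *Slc12a4* (-2.27, on 2 and 1 UMIs in pre-pit cells) in the first and *Ano1* (-0.90) in the second. In dataset 1 the steps called 5 higher and 1 lower of 48 (12.5% against 10.7%, median 0.04 against 0) and 1 higher and 2 lower (6.25% against 6.82%, median 0 against 0). *Sctr* (2.10) and *Slc26a2* (1.20) rose and *Slc9b2* (-1.57) fell from isthmus-like to corpus pre-pit cells, and *Slc12a7* (0.85) rose and *Slc9a3r2*, a scaffold that binds NHE3 (-1.32), fell from corpus pre-pit to mature pit cells. *Sctr* was picked by the study as a corpus pit marker from these cells, so its direction is not independent evidence.

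Corpus pit cells had 5 of 48 list genes higher and 6 lower than antrum pit cells (22.9% called against 5.42%, median 0.05 against 0). *Sctr* (2.37) and *Slc9a3r2* (1.49) were the largest rises. *Clca1*, a secreted regulator of calcium-activated chloride channels, was the largest fall at -7.83, at 1.53 and 26.4 CPM in corpus against 614 and 1390 CPM in antrum pit cells, and *Clcn2* fell by 1.14. Antrum mature pit cells had 3 of 48 higher and 2 lower than antrum pre-pit cells (10.4% against 7.96%, median 0 against 0). *Sctr* (1.97) and *Ano10* (1.75) were higher and *Slc12a8* lower (-4.80, on 0 and 4 UMIs in antrum mature pit cells). Enterocyte-like cells had 13 of 48 higher and 10 lower than antrum mature pit cells (47.9% against 35.9%, median 0.29 against 0). *Prkg2*, a kinase, had 117 UMIs against 0 and was at least 80.4-fold higher, the scaffold *Pdzk1* rose by 8.15 (270 and 339 CPM against 0.715 and 1.12), and *Clca1* (-6.17) and the exchanger *Slc9a4* (-4.36, 12.7 and 11.3 CPM against 252 and 239) fell most. In the test of corpus against antrum maturation 0 of 48 were called (median -0.07 against -0.02).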

How the data were processed

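RNA of single mouse stomach cells was measured by Quartz-Seq2 in 2 datasets. The authors demultiplexed with bcl2fastq 2.20.0.422, aligned to GRCm39 with STAR, counted UMIs with Drop-seq tools against Gencode M27 and clustered with Seurat. The deposited count tables hold UMI counts per gene and well, without normalization, and the deposited cell annotation gives the cluster, the phase and the percent of mitochondrial UMIs, a percent value by the authors that was not used here. All plates share the same 384 barcodes, so a cell was identified by plate and barcode.

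Counts of the kept cells were summed by cell type or cluster and pool, giving 24 sums for dataset 2 types, 40 for its clusters and 30 for dataset 1 clusters. Sums were fitted in edgeR 4.0.16 (R 4.3.3) with TMM scaling, filterByExpr and the robust quasi-likelihood test, over 13383, 15295 and 11965 genes with 12, 20 and 15 residual degrees of freedom, and p-values were adjusted by Benjamini-Hochberg over all genes of a comparison. In a test on simulated data the fit recovered most changed genes, but in dataset 2 a larger share of its calls was false than the threshold allows. Cells are not replicates, and with 2 pools a group the p-values measure the spread between these pools. Sums of 1 pool share their mice, which pairs them. Same-pool deviations of dataset 2 types correlated by a median of 0.028 (lowest -0.013, highest 0.52), over 0.1 in 14 of 66 pairs of types. Those of dataset 2 clusters correlated by a median of 0.050 (lowest -0.040, highest 0.36), over 0.1 in 66 of 190 pairs. In dataset 1 the correlation was over 0.1 in 0 of 105 pairs of clusters. Intervals of shares are exact (Clopper-Pearson, 95%), and those of ratios and the floor of 3 UMIs cover counting error only. Alternatives were size factors of DESeq2 1.42.0 (RLE), no filter, DESeq2's test, the pool as a block, sums per plate, epithelial clusters alone, each pool left out, thinning to 10000 UMIs, a pseudocount of 10 for likeness and, chosen after seeing the data, library totals with no scaling.

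The 8 genes were described in every comparison. From the list of 68, the 2 largest rises and falls were named among called genes that moved the same way in each pool and reached 10 UMIs per pool in the higher group, of which 1 gene is not reported here. The most similar genes were the 3 with the highest Pearson correlation over dataset 2 clusters among genes reaching 10 UMIs per pool in some cluster. The members and lists were chosen with earlier results of these data known.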

Additional observations from a re-analysis of the deposited data

Results flagged for a closer look

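In pool K of dataset 2, 1 of the 6 plates stood apart from the others for 2 rare transporters. In parietal cells *Slc26a3* was at 1.48 CPM on that plate, without TMM scaling, and at most 0.360 CPM on the other 5. In isthmus cells *Cftr* was at 8.48 CPM on the same plate and between 0.669 and 2.07 CPM on the other 5. Both rest on few UMIs. Parietal cells of pool K held 8 *Slc26a3* UMIs in all, and 1 isthmus cell of pool K held 24 of the 63 *Cftr* UMIs of its type and pool. The gap to the nearest plate passed Dixon's 95% critical value, which chance does in about 1 in 20 groups of normally spread values. All 8 transporters were scanned, each in its highest group of each dataset. The lowest *Slc26a3* plates of pool K were at 0 CPM, so that rate need not hold there.

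Wells that the authors left out of the clusters also held UMIs of the transporters, above the limit of 3 UMIs. In dataset 1 these wells held 41 UMIs of *Slc26a9*, 226 of *Slc26a6*, 136 of *Slc26a3*, 107 of *Slc4a4*, 89 of *Slc9a2*, 65 of *Slc9a3*, 173 of *Slc12a2* and 15 of *Cftr*, among 3016503 UMIs of all genes. As levels without TMM scaling, *Slc26a3* was at 45.1 CPM in the wells left out and 30.8 CPM in the kept cells, and *Slc26a6* at 74.9 and 65.1 CPM, whereas *Slc26a9* was at 13.6 and 113 CPM and *Slc12a2* at 57.4 and 266 CPM. In dataset 2 they held 186 UMIs of *Slc26a9*, 14 of *Slc26a6*, 6 of *Slc4a4*, 32 of *Slc9a2* and 176 of *Slc12a2*, among 1654145 UMIs of all genes. There *Slc26a9* was at 112 CPM in the wells left out and 192 CPM in the kept cells, and *Slc12a2* at 106 and 449 CPM.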

How the results depend on the processing

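The 43 member values followed were recomputed under each alternative. Of the 27 that were called, 4 lost the call or turned under at least 1 of them, as given with the results: *Slc4a4* in pre-pit against isthmus and in corpus against antrum pit cells, *Slc26a3* in enterocyte-like cells and *Slc9a2* in parietal against isthmus cells, which was -0.014 with library totals only. All 43 kept their side of the threshold with RLE size factors. With the pool as a replicate block 39 did and 4 became called, *Slc4a4* (0.39) and *Slc12a2* (-0.46) in mature pit against pre-pit cells, *Slc26a9* between the parietal clusters (-0.66) and *Cftr* in enterocyte-like cells (3.91), and it changed no other call. Sums per plate, which treat plates of a pool as replicates, made 13 more calls. Counts of genes called moved by over 1.5 times with plates as the unit in mature pit against pre-pit (2521 against 1118), pre-pit against isthmus (5316 against 3080), parietal cluster 8 against 1 (4683 against 3008), neck cluster 12 (1915 against 1094) and the corpus-antrum maturation test (0 against 3). They moved with library totals only in chief against neck (9118 against 4609) and neck cluster 12 (2454), and in the maturation test without the filter (19) and with DESeq2 (7). The share of calls that were higher went from 69.3% to 37.6% with library totals in mature pit, from 39.9% to 13.4% in pre-pit, from 49.4% to 6.71% in chief, from 48.1% to 27.1% in parietal and from 45.4% to 12% in neck cluster 12 comparisons of dataset 2, and rose from 45.5% to 78.9% between the parietal clusters. In dataset 1 it went with library totals from 56.9% to 28.4% in corpus mature pit and from 42.8% to 16.1% in corpus pre-pit comparisons. There it also went from 48.1% to 30.9% in parietal and from 67.5% to 22.2% in antrum mature pit comparisons. With RLE factors, the share in dataset 2 rose from 48.3% to 58.4% in neck against isthmus and from 45.4% to 58.3% in neck cluster 12. In dataset 1 these factors moved it from 67.5% to 58.3% in antrum mature pit and from 49.4% to 57.2% in enterocyte-like comparisons. Leaving out a pool left no residual degrees of freedom, so it gave values with no test and no counts, and no called value changed sign. Of the 3 genes most like each transporter, 0 to 2 stayed among the top 3 with a pseudocount of 10, and 0 stayed for *Slc26a6* and *Slc9a3*. Depth limits *Slc26a3*, *Slc9a3* and *Cftr*, whose values in dataset 2 rest on 12, 89 and 252 UMIs.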
